A study of Mus musculus with 6 samples.

Results

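The 32 genes described here make cholesterol and fatty acids, or control that synthesis, in C2C12 cells, mouse myoblasts grown as an established line that forms multinucleated muscle fibres (myotubes) in culture. They were taken from a list of genes linked to the sterol regulatory element-binding proteins (SREBPs), and all 32 stand among the 12625 genes of the count table. Of these, 17 are sterol synthesis enzymes, 9 are fatty acid enzymes, and 6 are SREBP regulators together with the sterol transport protein Stard4. The samples were 6 RNA sequencing libraries of C2C12 myotubes. In 3 of them, myotubes differentiated for 5 days had received recombinant mouse RANKL (TNFSF11) at 100 ng per ml for 72 h, and the other 3 had received vehicle. RANKL is the cytokine that binds RANK, a receptor best known from osteoclasts, and both groups come from the same line with no genetic change named in the labels. Separate cultures are not stated for the replicates, and the p-values then describe the spread among the 6 libraries, part of which may be technical. The cells carried the RNA of myotubes, with Acta1 at 6072 ± 57.0 CPM, Myh3 at 7769 ± 193 CPM and Des at 4057 ± 58.0 CPM under vehicle (mean ± SD, n = 3; CPM are counts scaled to a fixed library total, with TMM factors, throughout).

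SREBPs are transcription factors that are made as precursors in the membrane of the endoplasmic reticulum. When sterols are scarce, Scap escorts the precursor to the Golgi, where it is cut and its active part goes to the nucleus. When sterols are plentiful, the Insig proteins hold Scap back. The product of Srebf2 acts mainly on sterol genes and the products of Srebf1 mainly on fatty acid genes. Growing and fusing muscle cells need both classes of lipid for their membranes.

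Under RANKL, 31 of the 32 genes had a log2 fold change (RANKL over vehicle) below 0, as had 48.3% of all genes tested. The changes were small, with a median of -0.14 and a range from -0.36 to 0.10, whereas the median over all genes tested was 0.0047. By edgeR's quasi-likelihood test, adjusted over all genes, 11 members fell and 0 rose, while 21 had an unadjusted p under 0.05. The members called lower were the sterol enzymes Mvd, Lss, Ebp and Dhcr7, the regulators Insig1, Srebf1 and Srebf2, and the fatty acid enzymes Fasn, Scd2, Acly and Scd1. Over all genes, 7.50% were called lower, 5.35% higher and 12.9% either way. Members lie among the better expressed genes, and 12.1% of the 6607 genes at or above the vehicle level of the lowest member were called lower. No test was made of the list as a whole. RNA of whole cultures cannot tell fewer cells of a type from less RNA per cell.

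RANKL replicate 1 stood apart in these genes. It was the lowest of all 6 libraries in 28 of the 32 members, against 20.3% of all genes tested. The median coefficient of variation of the 17 sterol enzymes was 1.63% between vehicle libraries and 11.3% between RANKL libraries, while over all genes the medians were 3.96% and 4.42%. In the 6 regulators the medians were 2.79% and 2.52%, but Insig1 went from 1.38% to 16.6% and Stard4 from 6.12% to 11.6%. The calls on members below are therefore also given without that library. Leaving it out kept the same 4 sterol enzymes and the same 3 regulators lower, and left 2 of the 4 fatty acid enzymes, at a background of 6.97% of all genes lower. In that fit 26 of the 32 members still had a log2 fold change below 0. In the other fits that the counts below refer to, the share of all genes called lower was 4.44%, 4.25% and 5.72% without vehicle replicates 1, 2 and 3, 4.72% and 6.89% without RANKL replicates 2 and 3, 4.96% with total count scaling, 6.41% with DESeq2's test and 7.50% with a trend on gene length removed.

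**Figure D1:**
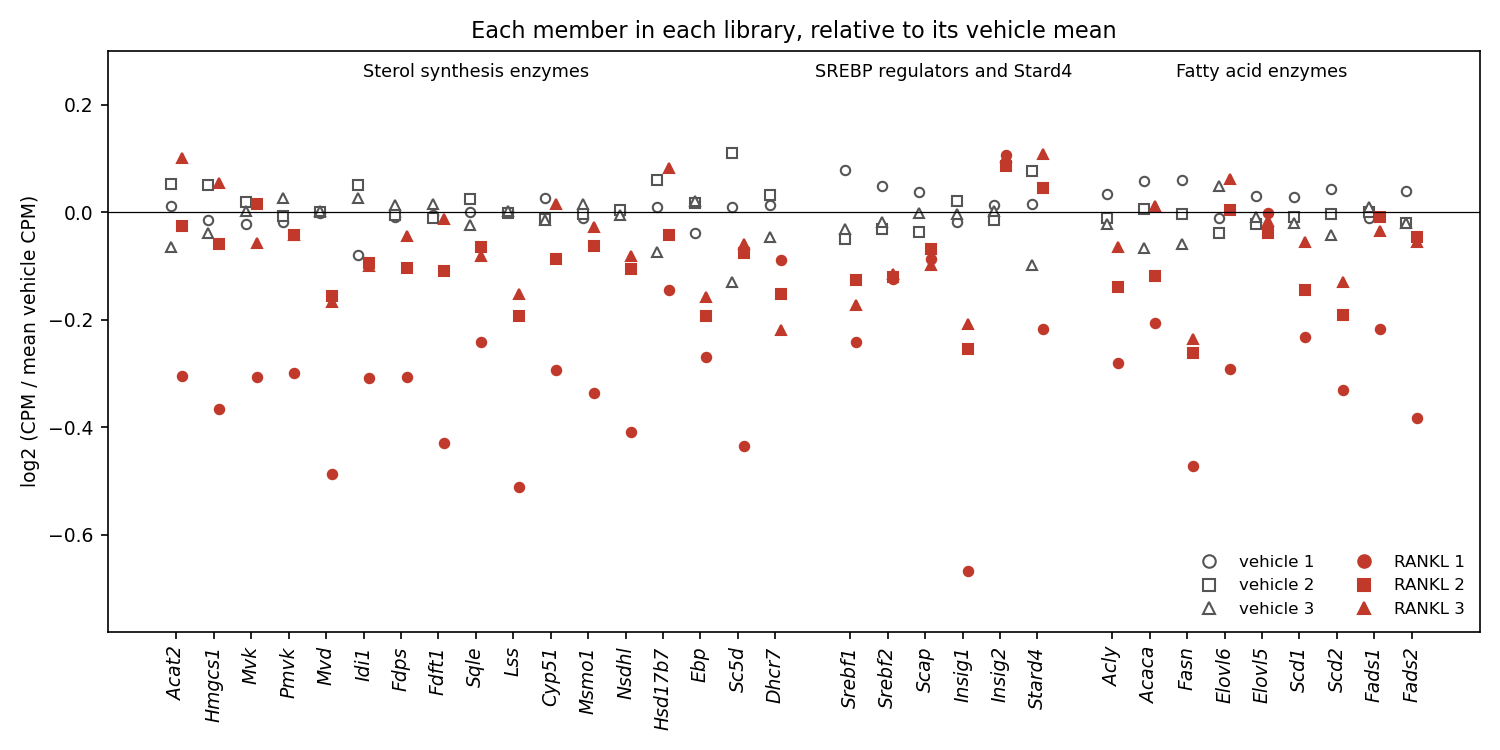
Each of the 32 members (x axis) in each of the 6 libraries, as the log2 of its CPM over its mean vehicle CPM (y axis), with open grey symbols for vehicle and filled red symbols for RANKL, replicates 1 to 3 as circle, square and triangle. RANKL replicate 1 is the lowest library in 28 members, the exceptions being Dhcr7, Scap, Insig2 and Elovl5.

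SREBPs bind sterol regulatory elements, usually beside a box for the factor NF-Y, and promoter windows of the members were searched for the letters of both. RefSeq windows of 300 bases (build GRCm38.p6, the assembly of mm10), from 250 bases before to 50 after a start site, matched 25 of the 32 members. Fdps, Fdft1, Sqle, Stard4, Scd1, Scd2 and Fads1 had no entry. The sterol element was searched as TCACNCCAC and the NF-Y box as CCAAT, each on both strands and with overlapping matches counted. The windows of Fasn, Ebp and Insig1 are shown because these had the smallest p among members with a window. That of Hmgcs1, chosen after its letters were seen, is the 1 member window with the sterol element letters. Sequences run 5′ to 3′ on the gene's strand, and capitals mark matches of either motif (ATTGG is the NF-Y box read on the other strand). They lie at chr11:120824498-120824797 (minus strand, Fasn), chrX:8193463-8193762 (minus strand, Ebp), chr5:28071162-28071461 (plus strand, Insig1) and chr13:119690101-119690400 (plus strand, Hmgcs1).
Fasn: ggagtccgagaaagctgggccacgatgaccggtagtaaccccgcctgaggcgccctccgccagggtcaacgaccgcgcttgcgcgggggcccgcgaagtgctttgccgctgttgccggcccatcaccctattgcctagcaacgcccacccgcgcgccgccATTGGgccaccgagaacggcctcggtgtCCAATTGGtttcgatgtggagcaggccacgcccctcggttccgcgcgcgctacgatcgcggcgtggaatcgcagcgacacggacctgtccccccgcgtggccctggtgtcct
Ebp: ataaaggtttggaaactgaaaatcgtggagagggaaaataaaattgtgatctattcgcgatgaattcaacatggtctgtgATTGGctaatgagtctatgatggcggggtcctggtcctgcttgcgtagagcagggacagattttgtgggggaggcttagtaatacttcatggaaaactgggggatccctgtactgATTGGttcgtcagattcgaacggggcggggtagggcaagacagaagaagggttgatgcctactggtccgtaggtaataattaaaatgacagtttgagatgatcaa
Insig1: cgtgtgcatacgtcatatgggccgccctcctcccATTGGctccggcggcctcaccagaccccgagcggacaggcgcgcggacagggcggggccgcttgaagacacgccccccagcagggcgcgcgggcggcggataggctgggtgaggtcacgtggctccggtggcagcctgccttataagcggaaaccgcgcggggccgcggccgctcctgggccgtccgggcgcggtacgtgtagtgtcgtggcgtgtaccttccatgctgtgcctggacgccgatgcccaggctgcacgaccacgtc
Hmgcs1: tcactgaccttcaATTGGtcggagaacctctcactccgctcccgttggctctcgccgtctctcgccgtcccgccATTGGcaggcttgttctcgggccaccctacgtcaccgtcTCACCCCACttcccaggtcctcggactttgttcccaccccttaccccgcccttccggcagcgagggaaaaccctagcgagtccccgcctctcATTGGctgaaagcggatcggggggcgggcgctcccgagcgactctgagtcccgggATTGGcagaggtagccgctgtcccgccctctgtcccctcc

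Hmgcs1 held 4 NF-Y boxes and its sterol element began 137 bases before the start site, with no overlap between them. Fasn held 3 NF-Y boxes, of which 2 on opposite strands overlap in the run CCAATTGG. Ebp held 2 and Insig1 held 1. Over the 25 members, 20 (80.0%) had an NF-Y box in at least 1 window, including 13 of 14 sterol enzymes, 4 of 5 regulators and 3 of 6 fatty acid enzymes. Among the 9625 tested genes with a window the share was 42.9%, and among all 32851 windows it was 37.4%. The sterol element letters stood in 1 of 25 members (4.0%), 1.45% of tested genes and 1.24% of windows. Another motif, the Sp1 box GGGCGG, stood in 20 of 25 members and in 69.1% of tested genes. Such matches are letters in a window. The sterol element was searched in the form TCACNCCAC only. A window without these letters therefore says nothing about SREBP binding, either within it or elsewhere.

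Levels per gene length came from the authors' deposited log2 table, read as log2 RPKM (CPM per kilobase) and put back on a linear scale. The stearoyl-CoA desaturases, which put the double bond into newly made fatty acids, stood highest under vehicle. Scd2 had 649 ± 19.2 RPKM and Scd1 335 ± 5.83 RPKM (mean ± SD, n = 3). Next came Fdps, which makes farnesyl diphosphate, with 159 ± 1.36 RPKM, and Hmgcs1, which makes HMG-CoA at the entry of the mevalonate pathway, with 118 ± 3.78 RPKM. Srebf2 and Ebp followed at 100.4 ± 2.98 and 96.6 ± 2.20 RPKM, a gap of 1.26 times the larger SD. Fads2, Cyp51, Msmo1 and Dhcr7 lay between 84.2 and 80.8 RPKM, each within the larger SD of its neighbour. The lowest levels were those of Acaca, Idi1 and Elovl6 at 9.83 ± 0.425, 9.76 ± 0.463 and 6.01 ± 0.184 RPKM, and the first 2 of these differed by less than their spread. Within the fatty acid group the levels thus ran from 6.01 to 649 RPKM, and among sterol enzymes from 9.76 to 159 RPKM.

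**Figure D2:**
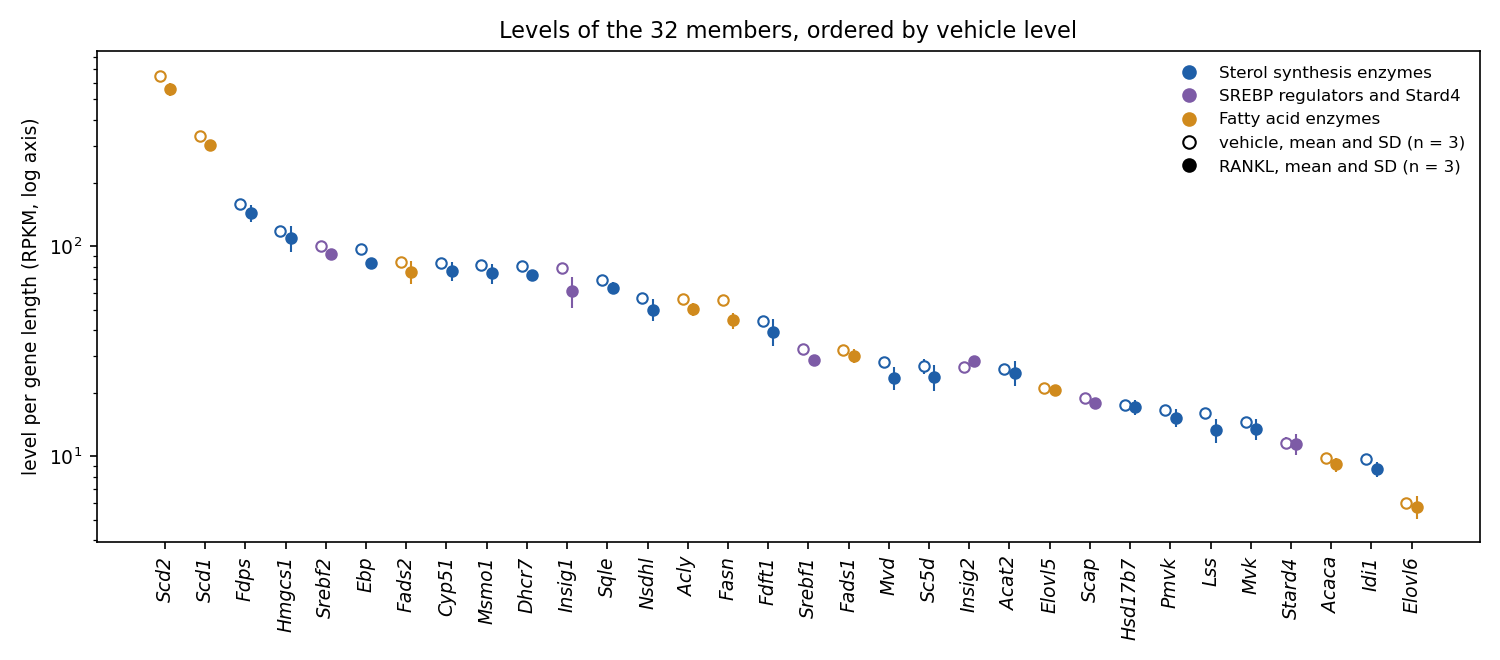
Level per gene length (RPKM, log axis) of the 32 members in order of their vehicle level, with open points for vehicle and filled points for RANKL (mean and SD, n = 3) and colour for the gene group. Scd2 at 649 RPKM and Scd1 at 335 RPKM under vehicle stand above all other members, and in each group of genes most RANKL points lie slightly below their vehicle points.

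Of the 17 sterol synthesis enzymes 4 fell (23.5%, against 7.50% of all genes tested), 0 rose and 13 did not pass the test. All 17 had a log2 fold change below 0, with a median of -0.15 and a range from -0.28 to -0.03. In 11 enzymes all RANKL libraries lay below all vehicle libraries, as in 16.6% of all genes, and in the other 6 the groups overlapped. Of the 7 enzymes from acetyl-CoA to farnesyl diphosphate 1 fell, and their median log2 fold change was -0.13. Of the 10 from squalene onwards 3 fell, and their median was -0.16.

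In the mevalonate arm, Mvd, the decarboxylase that makes isopentenyl diphosphate, was the 1 enzyme that fell. Its CPM was 52.6, 52.6 and 52.7 in vehicle replicates 1 to 3 and 37.6, 47.2 and 46.9 in RANKL replicates 1 to 3. The vehicle libraries hardly differed, and all RANKL libraries lay below them, replicate 1 farthest. The log2 fold change was -0.26 ± 0.07 (SE, 95% interval -0.41 to -0.12), a level 16.7% lower, with an adjusted p of 0.0176 by edgeR. The other 6 did not pass. Acat2, which joins acetyl-CoA units, Hmgcs1 and the mevalonate kinase Mvk overlapped between groups, with log2 fold changes of -0.07 ± 0.07, -0.11 ± 0.07 and -0.11 ± 0.07. Hmgcs1 had 419, 439 and 412 CPM under vehicle and 328, 407 and 440 under RANKL, so that RANKL replicate 3 was its highest library and RANKL replicate 1 its lowest. Pmvk (phosphomevalonate kinase), Idi1 (isopentenyl diphosphate isomerase) and Fdps did not overlap between groups and had log2 fold changes of -0.13 ± 0.07, -0.17 ± 0.06 and -0.15 ± 0.05, with adjusted p of 0.235, 0.0957 and 0.0713 by edgeR.

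Squalene is made by Fdft1 and oxidised by Sqle before Lss closes it into lanosterol, the first sterol. Lss fell from 102, 102 and 102 CPM in the vehicle libraries to 71.6, 89.2 and 91.7 CPM in RANKL replicates 1 to 3. Its groups did not overlap, and RANKL replicate 1 lay 29.8% below the vehicle mean and RANKL replicate 3 10.1%. The log2 fold change was -0.28 ± 0.07 (95% interval -0.42 to -0.14, adjusted p = 0.0126 by edgeR). Sqle and Fdft1 did not pass, at -0.13 ± 0.04 and -0.17 ± 0.07, and in both all RANKL libraries lay below all vehicle libraries. For Fdft1 RANKL replicate 3 lay 0.884% below the vehicle mean.

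Ebp, the sterol isomerase that moves a double bond in the ring, had the smallest p of the sterol enzymes. It had 164, 170 and 171 CPM under vehicle and 140, 147 and 151 under RANKL. All RANKL libraries lay below all vehicle libraries. A log2 fold change of -0.21 ± 0.04 (95% interval -0.28 to -0.13, adjusted p = 0.00167 by edgeR) corresponded to a level 13.4% lower. Dhcr7, which makes cholesterol in the final reduction, had 230, 232 and 220 CPM under vehicle and 214, 205 and 195 under RANKL. Here RANKL replicate 3 was lowest and replicate 1 highest within RANKL, whereas in the other 16 sterol enzymes replicate 1 was the lowest library. Its log2 fold change was -0.15 ± 0.04 (95% interval -0.23 to -0.07, adjusted p = 0.0146 by edgeR).

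The remaining 5 enzymes strip methyl groups from lanosterol or reshape its rings, and none passed. Cyp51, Msmo1, Nsdhl and Hsd17b7 take part in removing methyl groups, and Sc5d places a ring double bond. Nsdhl came closest, with 127, 127 and 126 CPM under vehicle and 95.3, 118 and 120 under RANKL, no overlap, and a log2 fold change of -0.19 ± 0.06 (adjusted p = 0.058 by edgeR). The others lay between -0.18 ± 0.08 for Sc5d and -0.03 ± 0.05 for Hsd17b7, and in Cyp51, Sc5d and Hsd17b7 the groups overlapped.

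Without RANKL replicate 1 the median of the sterol enzymes went from -0.15 to -0.06, Mvd went to -0.16 and Lss to -0.17, and Acat2, Hmgcs1 and Hsd17b7 changed sign to 0.042, 0.0016 and 0.024. The number of sterol enzymes that fell was 2 without vehicle replicate 1, 1 without vehicle replicate 2 (Ebp) and 10 without RANKL replicate 3. Mvd lost its call when any 1 vehicle library was left out, Lss without vehicle replicate 2 and with DESeq2's test, and Dhcr7 without vehicle replicate 1 or 2 or RANKL replicate 2.

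**Figure D3:**
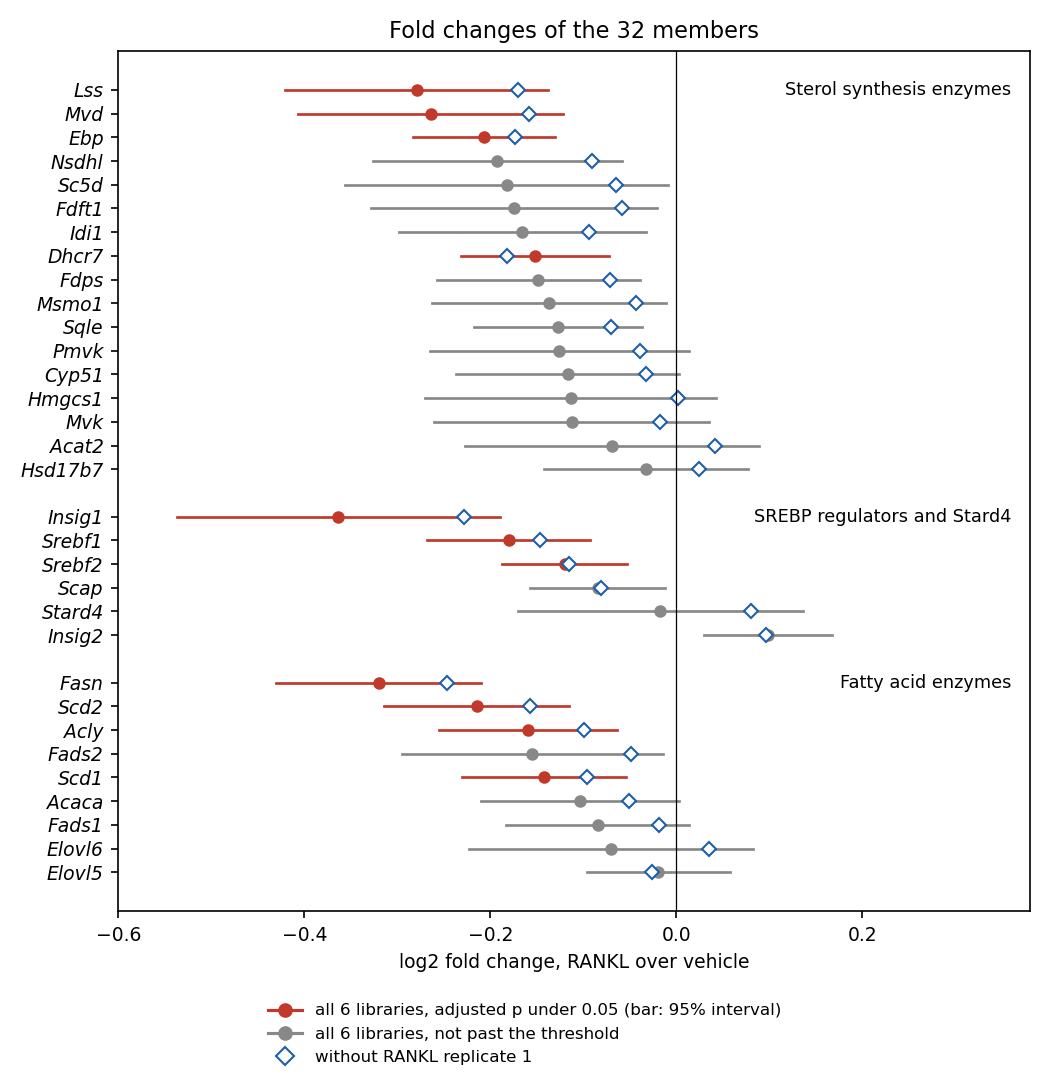
Log2 fold change of each member, RANKL over vehicle (x axis), from all 6 libraries with its 95% interval (circles and bars, red where the adjusted p is under 0.05) and without RANKL replicate 1 (open diamonds). Of 32 circles 31 lie left of 0, and 26 diamonds do, most of them nearer to 0 than their circle.

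Of the 6 regulators 3 fell and 0 rose, with a median log2 fold change of -0.10. Insig1, itself an SREBP target that holds the Scap and SREBP complex in the endoplasmic reticulum, had the most negative fold change of all 32 members. Its CPM was 206, 212 and 208 under vehicle and 131, 175 and 181 under RANKL. All RANKL libraries lay below all vehicle libraries, replicate 1 by 37.0% of the vehicle mean and replicate 3 by 13.4%. The log2 fold change was -0.36 ± 0.08 (95% interval -0.54 to -0.19, adjusted p = 0.00895 by edgeR). Insig2 had 79.1, 77.5 and 78.4 CPM under vehicle and 84.3, 83.2 and 84.1 under RANKL, the 1 member with a positive fold change. Its groups did not overlap, as in 14.9% of all genes with higher RANKL values, and spread little within either. The log2 fold change of 0.10 ± 0.03 gave an adjusted p of 0.0588 by edgeR, which did not pass. The difference between the paralogs was not tested.

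Both SREBP genes fell. Srebf1 had 147, 135 and 136 CPM under vehicle and 118, 128 and 124 under RANKL. The highest RANKL library lay below the lowest vehicle library, and the log2 fold change was -0.18 ± 0.04 (95% interval -0.27 to -0.09, adjusted p = 0.00998 by edgeR). Gene counts join all transcripts of Srebf1 and do not separate its isoforms. Srebf2 had 474, 449 and 453 CPM under vehicle and 421, 422 and 424 under RANKL. Its RANKL libraries were nearly equal, unlike those of the sterol enzymes, and the log2 fold change was -0.12 ± 0.03 (95% interval -0.19 to -0.05, adjusted p = 0.0211 by edgeR).

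Scap, the escort of SREBPs, had 83.6, 79.3 and 81.3 CPM under vehicle and 76.7, 77.7 and 76.1 under RANKL, without overlap, but its log2 fold change of -0.08 ± 0.03 did not pass (adjusted p = 0.12 by edgeR). Stard4, which carries cholesterol between membranes, overlapped between groups at -0.02 ± 0.07, and its sign changed without RANKL replicate 1 (0.080), without vehicle replicate 2 (0.022) and with total count scaling (0.014). Insig1 went to -0.23 without RANKL replicate 1 and was not called by DESeq2's test. Without vehicle replicate 1 neither Srebf1 nor Srebf2 was called, leaving 1 regulator lower, and Srebf2 was also not called without vehicle replicate 2, without RANKL replicate 2 or with total count scaling.

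Of the 9 fatty acid enzymes 4 fell (44.4%, against 7.50% of all genes tested), 0 rose and 5 did not pass. All 9 had a log2 fold change below 0, with a median of -0.14 and a range from -0.32 to -0.02. In 5 of them all RANKL libraries lay below all vehicle libraries, as in 16.6% of all genes, and in 4 the groups overlapped. Fasn, the synthase that builds palmitate, had the smallest p of all 32 members. Its CPM was 574, 549 and 529 under vehicle and 397, 459 and 467 under RANKL. The groups did not overlap and replicate 1 was again lowest. The log2 fold change was -0.32 ± 0.05 (95% interval -0.43 to -0.21, adjusted p = 0.00107 by edgeR), a level 19.9% lower. Acly, which supplies cytosolic acetyl-CoA from citrate, had 254, 246 and 244 CPM under vehicle and 204, 225 and 237 under RANKL. These groups lay close to each other without overlap, and the log2 fold change was -0.16 ± 0.04 (95% interval -0.26 to -0.06, adjusted p = 0.0306 by edgeR).

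Both desaturases fell. Scd2 had 3644, 3530 and 3436 CPM under vehicle and 2813, 3096 and 3234 under RANKL, and its log2 value changed by -0.21 ± 0.05 (95% interval -0.31 to -0.12, adjusted p = 0.00719 by edgeR). Scd1 had 1654, 1612 and 1600 CPM under vehicle and 1381, 1468 and 1561 under RANKL, and its log2 value changed by -0.14 ± 0.04 (95% interval -0.23 to -0.05, adjusted p = 0.0348 by edgeR). In both genes every RANKL library lay below every vehicle library, with replicate 1 lowest. Scd1 and Scd2 are close paralogs, and reads that match both are uncertain, since the counting rule is not stated.

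The other 5 fatty acid enzymes did not pass. Acaca, the carboxylase that makes malonyl-CoA, had a log2 fold change of -0.10 ± 0.05 with overlap between groups. The front-end desaturases Fads1 and Fads2, which act on polyunsaturated fatty acids, stood at -0.08 ± 0.05 and -0.15 ± 0.07, and Fads2 did not overlap between groups. The elongase Elovl6, which lengthens palmitate, stood at -0.07 ± 0.07. Elovl5, an elongase of polyunsaturated fatty acids, had 59.8, 57.7 and 58.2 CPM under vehicle and 58.5, 57.0 and 57.9 under RANKL. Its libraries all lay close together, with a log2 fold change of -0.02 ± 0.04 (95% interval -0.10 to 0.06), and its sign changed with total count scaling (0.011).

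Without RANKL replicate 1 the median of the fatty acid enzymes went from -0.14 to -0.05, Elovl6 changed sign to 0.035, Acly went to -0.10, and neither Acly nor Scd1 was called, which left Fasn and Scd2. Acly and Scd1 also lost their calls when any 1 vehicle library was left out, when RANKL replicate 2 was, and with total count scaling, which gave 2 fatty acid enzymes lower in each case. Fasn, Scd2 and, among the sterol enzymes, Ebp kept their calls in all 14 alternatives.

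The sterol and fatty acid branches were set side by side in each library. Averaged over its 17 genes, the log2 of CPM over the vehicle mean of the sterol branch was -0.33, -0.09 and -0.06 in RANKL replicates 1 to 3 and lay between -0.02 and 0.02 in vehicle libraries. For the 9 fatty acid enzymes the means were -0.27, -0.11 and -0.06 under RANKL and between -0.02 and 0.03 under vehicle. In both branches every RANKL library lay below every vehicle library, and replicate 1 was lowest. The vehicle libraries differed in order, the highest being replicate 2 for sterol and replicate 1 for fatty acid enzymes. The difference, sterol minus fatty acid, was -0.06, 0.01 and 0.0017 under RANKL and -0.04, 0.03 and 0.0040 under vehicle, so the groups overlapped in it. No p-value is attached to these means, since their members were chosen with earlier results known.

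**Figure D4:**
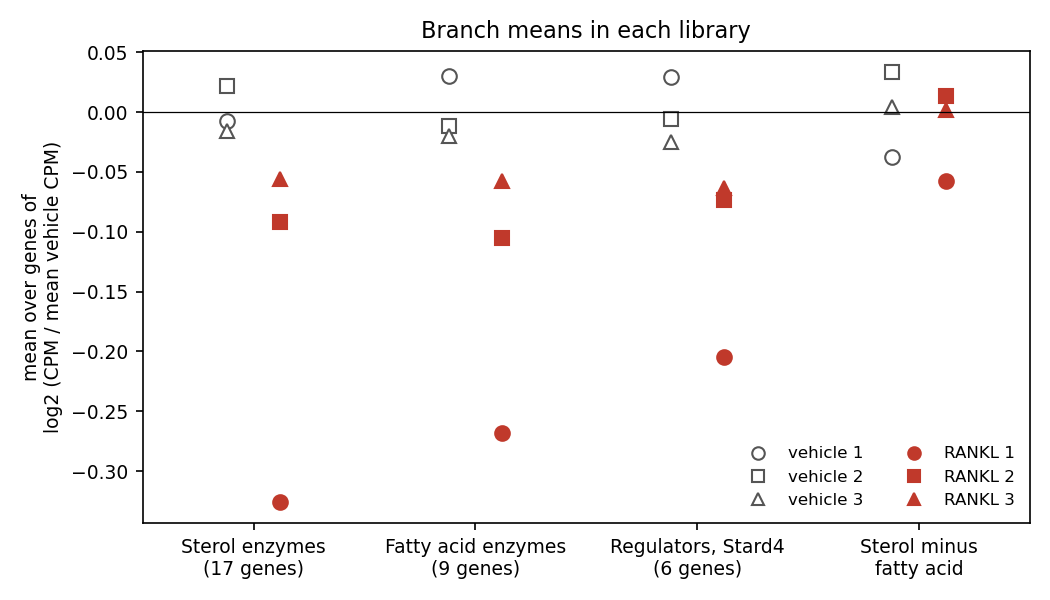
Mean over the genes of a branch of the log2 of CPM over the mean vehicle CPM (y axis) in each library, for sterol enzymes, fatty acid enzymes, the regulators with Stard4, and the difference between the 2 enzyme branches. RANKL replicate 1 is lowest in each branch (-0.33 for sterol and -0.27 for fatty acid enzymes), while the difference overlaps between groups.

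Other genes of the sterol pathway, listed from general knowledge, went in both directions. Of 34 measured, 6 fell (17.6%) and 1 rose (2.94%), against 7.50% and 5.35% of all genes tested. Their median log2 fold change was -0.0065. The one that rose was Ch25h, which oxidises cholesterol to an oxysterol known to hold back SREBP processing. It had 1.88, 1.80 and 2.11 CPM under vehicle and 4.70, 6.05 and 5.98 under RANKL. Each RANKL library stood above every vehicle library. The log2 fold change was 1.52 ± 0.14 (2.87-fold, adjusted p = 6.69e-06 by edgeR), and RANKL replicate 1 was the lowest of the RANKL libraries. Osbpl5, an oxysterol-binding protein relative, fell by 0.12 ± 0.03 on the log2 scale (adjusted p = 0.0221 by edgeR). Without RANKL replicate 1 both kept their calls, at 1.64 for Ch25h and -0.14 for Osbpl5. With total count scaling, or when vehicle replicate 2 was left out, 2 of the list fell, and 3 fell when vehicle replicate 1, RANKL replicate 1 or RANKL replicate 2 was.

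Of 30 measured genes for other steps of fatty acid and complex lipid synthesis 3 fell and 2 rose, with a median log2 fold change of -0.04. Tecr, a reductase of fatty acid elongation, fell from 369 ± 7.01 to 325 ± 6.88 CPM, and Fads3, a relative of Fads1 and Fads2, from 464 ± 2.51 to 418 ± 2.83 CPM. On the log2 scale they changed by -0.18 ± 0.03 and -0.15 ± 0.03 (adjusted p = 0.0016 and 0.00308 by edgeR). Acsl5, which activates fatty acids with CoA, rose from 37.1 ± 0.790 to 43.0 ± 0.489 CPM, and Hacd3, a dehydratase of elongation, from 28.3 ± 1.85 to 32.7 ± 0.331 CPM. The log2 fold changes of the pair were 0.21 ± 0.04 and 0.21 ± 0.05 (adjusted p = 0.00302 and 0.0167 by edgeR). For all 4 the groups did not overlap, as in 16.6% of all genes with lower and 14.9% with higher RANKL values. Without RANKL replicate 1 these 4 kept their calls, while 2 of the list fell and 2 rose. With the trend on gene length removed 6 of the list fell, where 7.50% of all genes did. In the fits that left out vehicle replicate 3 or RANKL replicate 2, 1 rose.

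Markers of other cell types and states were read beside these changes, where 7.50% of all genes tested were called lower and 5.35% higher. Proliferating cell markers had 9 of 12 higher, and their summed level was 237 to 245 CPM under vehicle and 284 to 307 CPM under RANKL, highest in RANKL replicate 1. Myotube markers had 6 of 15 lower and 0 higher, with a sum of 35018 to 35618 CPM under vehicle and 32298 to 33410 under RANKL. Only 8 of these 15 had a log2 fold change below 0 (53.3%, against 48.3% of all genes tested), and the rest lay above 0. Unfused myoblast markers had 3 of 12 lower and 2 higher, with sums of 2353 to 2418 and 2116 to 2220 CPM. The integrin Itga7 made up 83.9% of the vehicle sum. The sum of the other 11 markers went the other way, from 379 to 386 CPM under vehicle to 441 to 460 CPM under RANKL. Vcam1, which is among these 11, rose by more than their sum did, so the others together did not rise. Of all 12 markers, 7 had a log2 fold change below 0. Beside Itga7, Notch1 and Hes1 were called lower, and beside Vcam1, Cd34 was called higher. The adhesion molecule Vcam1, named after its values were seen, stood at 52.0 ± 2.94 CPM under vehicle and 136 ± 14.2 CPM under RANKL (adjusted p = 3.91e-09 by edgeR). Of 14 adipocyte markers 5 were measured, with sums of 27.8 to 30.2 and 25.0 to 26.2 CPM, and of 16 macrophage and osteoclast markers 4, with sums of 5.30 to 5.93 and 6.44 to 7.32 CPM (1.85 to 1.98 and 1.87 to 2.84 CPM without Cd14). For both of these lists edgeR called 0 genes, with 2 and 1 at an unadjusted p under 0.05, and DESeq2 and limma-voom called 0. Adipoq, Plin1, Cidec and Fabp4, which define adipocytes, and Ptprc, Adgre1 and Csf1r, which define macrophages, are not analysed here. The part of these markers in the lipid gene changes was not tested. Without vehicle replicate 2, 5 proliferating cell markers rose. Without RANKL replicate 1, 6 of them rose, 7 myotube markers fell, 3 unfused myoblast markers fell and 3 rose, and 1 adipocyte marker (Plin4) and 0 macrophage markers were called.

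On the mm10 build, by GENCODE M21, the members that fell lie on 8 chromosomes and all are protein-coding. Mvd lies on chromosome 8 from 122433601 to 122443422, Lss on chromosome 10 from 76531588 to 76557138, Ebp on chromosome X from 8185329 to 8193512 and Dhcr7 on chromosome 7 from 143823145 to 143848410. Insig1 lies on chromosome 5 from 28071363 to 28078662, Srebf1 on chromosome 11 from 60199089 to 60222581 and Srebf2 on chromosome 15 from 82147181 to 82205379. Fasn spans 120805846 to 120824547 and Acly 100476353 to 100528000, both on chromosome 11. Scd1 and Scd2 both lie on chromosome 19, from 44394455 to 44407879 and from 44293674 to 44306864. Exons of 8 members overlap a gene on the opposite strand, including Lss (4930483K19Rik), Srebf1 (Rai1), Cyp51 (Akap9) and Fdft1 (Ctsb). Exons of Fdps, Scd2 and again Srebf1 overlap a gene on the same strand. The use of strand in counting is not stated, so reads of the opposite-strand pairs are uncertain. Strand would not separate reads of the same-strand pairs, and the counting rule for them is not stated either. Acat2 has a close copy, Acat3, and reads shared by them are uncertain in the same way.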

How the data were processed

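Gene expression was measured by paired-end RNA sequencing of 6 C2C12 libraries, 3 given RANKL and 3 given vehicle, and groups were taken from the labels. Per the submitters' processing notes FastQC, STAR, edgeR and the build mm10 were used, without versions or roles. Which counter and annotation were used, and whether strand was, is not stated. The authors deposited raw counts for 12625 genes, and the 4708 blank lines after them were left out. Total counts per library lay between 32732604 and 39677999. The third-highest library of every gene had at least 0.504 CPM, so genes of low counts had been removed before deposit. The authors also deposited log2 values. These were read as log2 RPKM, since they differed from log2 CPM by a constant per gene to within 0.0061, after 1 factor per library, in the 9729 genes with at least 200 counts in every library.

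Counts were scaled by TMM and tested with the quasi-likelihood method of edgeR 4.0.16 (R 4.3.3). Its filterByExpr removed 0 genes, and p-values were adjusted by Benjamini-Hochberg over all genes, with 0.05 as the threshold. The SE of a log2 fold change is its size over the square root of F. Members and gene lists were chosen with earlier results of these data known. Members past the threshold are given by library, and up to 4 genes per further list by smallest p. Some genes that this rule names are not reported here. The lists of other pathway genes and markers were written from general knowledge, and 3 of their symbols were found under an older name. Alternatives were DESeq2 1.42.0, its size factors, limma-voom (limma 3.58.1), total count scaling, no filter, a mean of at least 1 CPM, a replicate block, removal of a trend on gene length, and leaving out each library. The steps were tested on simulated data, in which no library stood apart as RANKL replicate 1 did here. That test therefore does not show how such a library affects the calls. All replicate pairs differed by more than sampling noise (3.39 to 9.52 chi-square units per gene) and were kept.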

Additional observations from a re-analysis of the deposited data

How the results depend on the processing

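Of the 11 members called lower, 3 (Ebp, Fasn and Scd2) were called in all 14 alternatives, and 26 of the 32 members kept their sign in all of them. The 8 reversed values belong to members that did not pass. Of these, 5 arose without RANKL replicate 1, and over all fits that left out a library the log2 fold change ran from -0.16 to 0.042 for Acat2, from -0.20 to 0.0016 for Hmgcs1, from -0.090 to 0.024 for Hsd17b7, from -0.14 to 0.035 for Elovl6 and from -0.080 to 0.080 for Stard4. Without vehicle replicate 2 Stard4 stood at 0.022, and with total count scaling Stard4 and Elovl5 stood at 0.014 and 0.011. Leaving out a library gave 1 to 10 sterol enzymes, 1 to 3 regulators and 2 to 5 fatty acid enzymes lower. Over all genes, those fits gave 537 to 880 lower and 373 to 746 higher. They gave 2 to 6 other sterol pathway genes lower and 1 to 2 higher, 1 to 3 other lipid synthesis genes higher, 0 to 1 adipocyte markers lower and 5 to 9 proliferating cell markers higher.

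Total count scaling moved all genes by a median of 0.03 and gave 626 genes lower and 1070 higher, against 947 and 676. It also gave 2 fatty acid enzymes and 2 other sterol pathway genes lower. Insig2 was called higher, as 1 regulator, with total count scaling, among genes averaging at least 1 CPM, and with the length trend removed. Removing that trend gave 7 sterol enzymes, 6 other lipid synthesis genes and 5 myoblast markers lower, with 7.50% of all genes lower and 6.52% higher. The cause of these shifts was not tested. Same-numbered libraries are not stated to be paired, and their deviations correlated weakly, at 0.07, 0.04 and 0.02. The last, 0.0182, hardly differed from the 0.0181 of vehicle replicate 2 with RANKL replicate 3. With the replicate block 9 sterol enzymes were lower and 2 other sterol pathway genes higher, while 4 fatty acid enzymes and 3 regulators were lower, as without it, and 1008 genes were lower and 730 higher.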

Other observations

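RANKL replicate 1 also differed from the other libraries in 2 lipid genes, picked once their values were known, neither of which passed the test. Apoe, a lipoprotein component, had 30.9 CPM there, against 17.5 and 15.3 CPM in the other RANKL libraries and 13.2 to 16.3 CPM under vehicle. Lpl, the lipoprotein lipase, had 64.9 CPM there, against 42.5 and 36.9 CPM and 39.0 to 40.3 CPM. Their log2 fold changes over all 6 libraries were 0.54 ± 0.19 and 0.28 ± 0.14 (adjusted p = 0.0772 and 0.213 by edgeR).

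The cholesterol exporters Abca1 and Abcg1, targets of the sterol-sensing LXR receptors, overlapped between groups, with log2 fold changes of 0.04 ± 0.08 and 0.18 ± 0.10. Abca1 had 26.1, 27.5 and 24.0 CPM under vehicle and 22.7, 28.1 and 29.1 under RANKL, so RANKL replicate 1 was its lowest library as well. Abcg1 had 5.92, 6.19 and 7.50 CPM under vehicle and 7.45, 7.70 and 7.09 under RANKL. For Abcg1, RANKL replicate 1 was thus not the lowest library.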
